A study of Mus musculus with 12 samples.

Results

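The 10 genes described here belong to the autophagy core machinery, and their transcripts were followed by RNA sequencing in CT26 cells, a mouse colon carcinoma line. The 10 genes were chosen by symbol, with earlier results of these data known: Ulk1, Becn1, Atg5, Atg7, Map1lc3a, Map1lc3b, Gabarap, Gabarapl1, Gabarapl2 and Sqstm1. Each had 1 row among the 12584 genes of the deposited table, and all 10 were among the 10101 genes that reached 1 FPKM in 3 or more libraries and were tested. The cells had been treated for 24 h with NP-D@MP, with NP-D@M, with NP@M or with PBS (phosphate-buffered saline), with 3 libraries per treatment. The labels do not spell out these names. The series title speaks of a nanodrug that carries an engineered cancer cell membrane and is directed at CDKs. All 12 libraries come from the single CT26 line, and nothing in the labels says that replicate libraries stem from different cultures. The p-values therefore reflect the spread among these samples alone, and that spread may be technical.

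Macroautophagy encloses cytoplasm in a double membrane, the autophagosome, which then fuses with lysosomes. The ULK1 kinase starts the process, and a lipid kinase complex that contains Beclin 1 marks the membrane on which it proceeds. ATG7 and ATG5 take part in the conjugation reactions that attach proteins of the LC3 and GABARAP families to the growing membrane. SQSTM1, also called p62, links ubiquitinated cargo to LC3 and is itself degraded with that cargo. The measurements here are transcript levels, which do not report how much autophagosome formation or degradation took place.

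The values are FPKM, reads per kilobase of gene and scaled to a library size set by the authors, and reads per gene could be recovered from them. The reads in the table summed to 12.8 to 15.7 M reads (mega-reads) per library. The divisor in the authors' FPKM was 7.13 to 8.40 M reads in NP-D@MP and NP-D@M, the 6 libraries with D, and 28.2 to 31.1 M reads in NP@M and PBS, the 6 without D, so the authors' scaling itself differed between these groups. For a gene of 1 kb, 1 read was therefore worth 0.119 to 0.140 FPKM in the libraries with D and 0.0322 to 0.0355 FPKM in those without it. A common median ratio computed on these FPKM gave factors of 0.957 to 1.05 over the 12 libraries. Factors by TMM (trimmed mean of M values) on the reads in the table were 0.559 to 0.606 with D and 1.71 to 1.76 without it. Results are given first in the authors' FPKM, then on the reads in the table where this turns a direction or ends a call. Mitochondrial genes took 7.41% to 14.4% of the reads in the libraries with D and 3.30% to 4.20% in those without it. The summed level of 6 of 8 fibroblast markers was 11.1 to 15.4 FPKM with D and 70.6 to 86.6 FPKM without it. Col1a2 was most of this sum, at 9.25 FPKM in NP-D@M and 54.3 FPKM in NP@M. Dcn alone of the 6 was higher with D, at 0.355 FPKM in NP-D@M and 0.0544 FPKM in NP@M. The sum of 3 of 8 myeloid markers was 9.31 to 21.3 FPKM with D and 2.57 to 3.25 FPKM without it. Most of it was Cd68, at 12.5 FPKM in NP-D@M and 2.38 FPKM in NP@M. The median log2 change of the 2 tested, NP-D@M against NP@M, was 1.49 in FPKM. On the reads in the table it was 0.25, and neither was called, against 17.5% of all tested genes called higher. The defining leukocyte gene Ptprc was at 0.0677 FPKM or less in every library. Of the 10 colon epithelial markers, 8 had no row under their symbols in the deposited table. The other 2, Krt20 and Krt18, summed to 73.0 to 91.1 FPKM with D and 15.1 to 18.7 FPKM without it. Krt20 averaged 80.4 FPKM in NP-D@MP and 78.0 FPKM in NP-D@M, against 8.67 FPKM in NP@M and 9.27 FPKM in PBS. Krt18 averaged 4.19 and 4.46 FPKM in NP-D@MP and NP-D@M, against 6.89 and 8.16 FPKM in NP@M and PBS. The endothelial gene Pecam1 reached at most 0.191 FPKM, and Sag, looked up because the extraction text in the labels speaks of retinas, at most 0.589 FPKM. The part of the scaling, of the mitochondrial share and of these markers in the results below was not tested.

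For the promoters, windows of 250 bases before and 50 bases after the start site were taken from RefSeq on GRCm38.p6. Of the 10 genes 8 matched, and Becn1 and Map1lc3a had no entry. Shown are the promoter of Sqstm1, the gene with the largest fall among the 10, and the promoters of Map1lc3b, Atg5 and Atg7, in which one of the 3 motifs of autophagy and stress regulators was present. Capitals mark CACGTG, the E-box core read by TFEB and by other basic helix-loop-helix factors, or TGACNNNGC, the core of the antioxidant response element bound by NRF2; both strands were searched, as for TGATGNAAT, the C/EBP-ATF composite element. The windows are chr11:50210771-50211070 (minus strand) for Sqstm1, chr8:121590188-121590487 (plus strand) for Map1lc3b, chr10:44268089-44268388 (plus strand) for Atg5 and chr6:114670846-114671145 (plus strand) for Atg7.
Sqstm1: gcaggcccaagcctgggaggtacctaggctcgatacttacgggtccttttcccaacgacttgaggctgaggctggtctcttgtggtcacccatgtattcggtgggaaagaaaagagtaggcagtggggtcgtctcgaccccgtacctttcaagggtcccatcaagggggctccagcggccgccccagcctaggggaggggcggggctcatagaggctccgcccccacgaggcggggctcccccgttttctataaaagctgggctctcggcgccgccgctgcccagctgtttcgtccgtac
Map1lc3b: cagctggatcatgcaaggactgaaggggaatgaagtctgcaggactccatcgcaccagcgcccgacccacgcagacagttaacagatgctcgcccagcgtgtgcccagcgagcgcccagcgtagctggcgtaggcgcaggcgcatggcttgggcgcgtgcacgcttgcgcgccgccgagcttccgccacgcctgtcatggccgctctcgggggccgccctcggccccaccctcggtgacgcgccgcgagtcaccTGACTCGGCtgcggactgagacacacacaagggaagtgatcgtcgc
Atg5: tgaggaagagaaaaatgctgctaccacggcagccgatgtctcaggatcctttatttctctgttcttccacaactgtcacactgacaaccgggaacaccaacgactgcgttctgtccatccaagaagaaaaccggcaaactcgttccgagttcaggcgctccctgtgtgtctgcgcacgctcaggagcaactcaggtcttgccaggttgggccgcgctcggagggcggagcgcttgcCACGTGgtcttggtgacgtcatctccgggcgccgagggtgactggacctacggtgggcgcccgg
Atg7: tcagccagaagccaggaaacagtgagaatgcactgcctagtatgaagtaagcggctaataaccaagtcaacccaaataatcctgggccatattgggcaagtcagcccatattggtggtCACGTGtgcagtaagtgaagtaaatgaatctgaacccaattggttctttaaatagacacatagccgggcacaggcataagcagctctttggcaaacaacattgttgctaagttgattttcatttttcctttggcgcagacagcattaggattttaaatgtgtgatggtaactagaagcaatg
The Atg5 window held CACGTG from 14 bases before the start site and the Atg7 window from 132 bases before it, against 7.15% of 32851 RefSeq promoters of the same length with a match. The Map1lc3b window held TGACNNNGC beginning 4 bases after the start site, a motif present in 12.4% of all promoters. TGATGNAAT, in 0.965% of all promoters, had no match in the 8 windows. GGGCGG, the GC box, was in 6 of the 8 windows, in those of Ulk1, Atg5, Map1lc3b, Gabarapl1, Gabarapl2 and Sqstm1, and in 35.7% of all promoters. The Atg7 window lies inside the gene as the table delimits it (chr6:114643097-114860614). Atg5 and Atg7, the 2 genes with CACGTG in the window, moved in opposite directions in FPKM in NP-D@M against NP@M, while both were lower on the reads in the table, as given below.

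The question put first was how NP-D@M differed from NP@M, the pair of treatments whose names differ by D. In FPKM, 6 of the 10 genes rose (Becn1, Atg7, Map1lc3a, Map1lc3b, Gabarap and Gabarapl2) and 3 fell (Ulk1, Atg5 and Sqstm1), while Gabarapl1 was not called. These changes stood in a transcriptome in which most genes changed: 41.8% of the 10101 tested genes were called higher and 47.7% lower by limma at a Benjamini-Hochberg adjusted p under 0.05. The groups did not overlap for any of the 10 genes, nor for 87.3% of all tested genes. The median change of the 10 genes was 1.01 on the log2(FPKM + 1) scale, against a median of -0.19 over all tested genes. Under quantile normalization it was -0.24 against -0.10, with 4 of the 10 genes called higher and 4 lower. The shares of all tested genes called under quantile normalization or a common median ratio are not given here, so those counts have no background. In bulk RNA, fewer cells of a type and less RNA per cell cannot be told apart. Scaling to the reads in the table left 2 of the 10 genes called higher, Becn1 and Gabarapl2, and put 7 lower, against 17.5% and 70.5% of all tested genes.

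**Figure D1:**
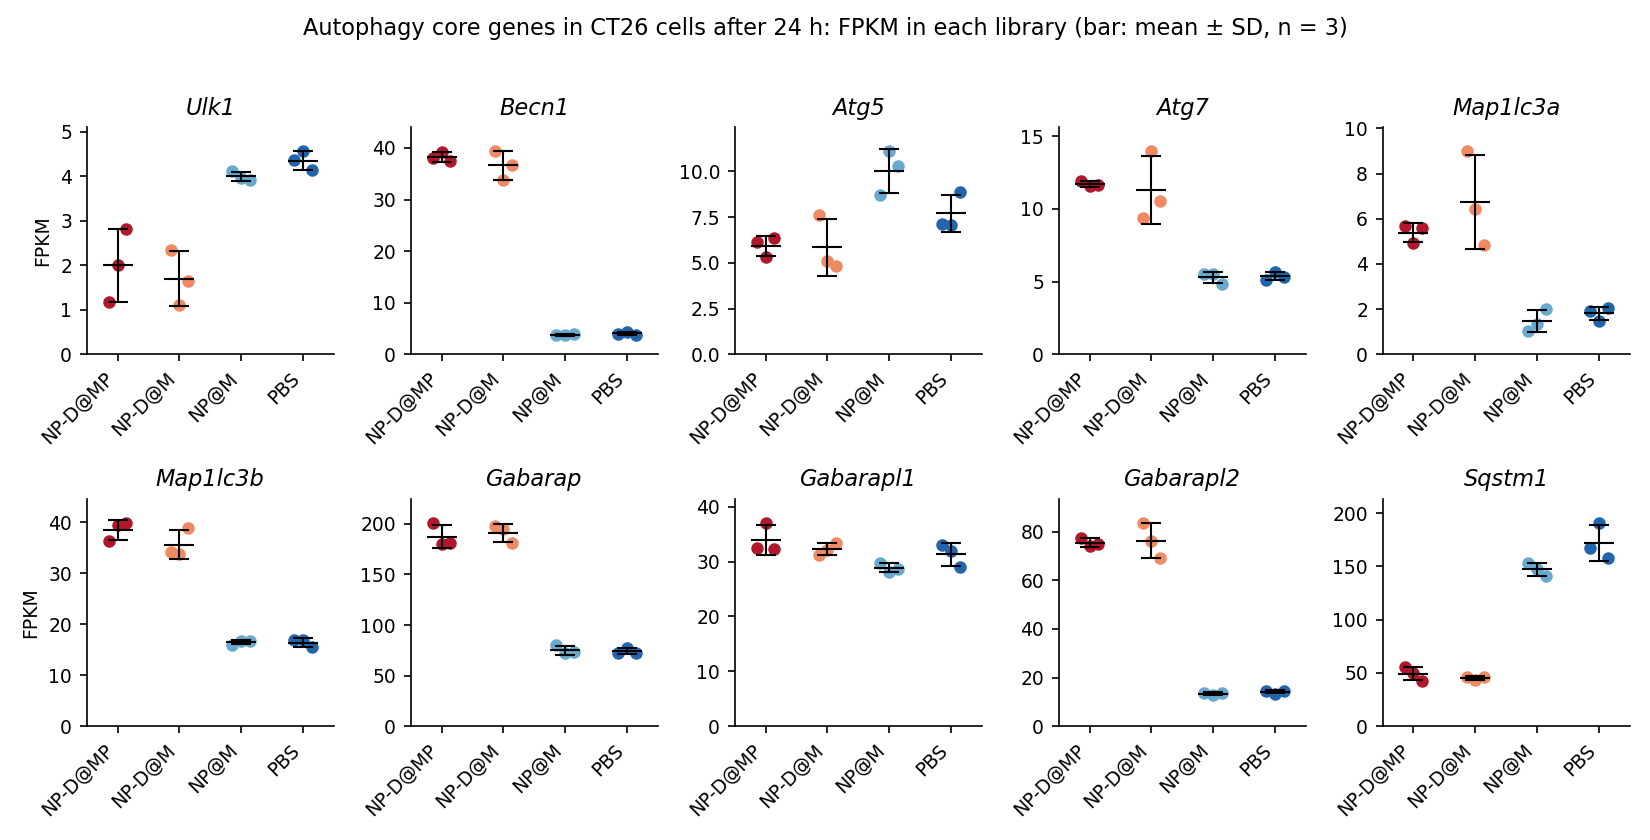
FPKM in the authors' scaling of each of the 10 genes in every library (points) with the group mean and SD (bars, n = 3), for NP-D@MP, NP-D@M, NP@M and PBS from left to right; each panel has its own vertical axis starting at 0. Both groups with D stand apart from both groups without it, upward for Becn1, Atg7, Map1lc3a, Map1lc3b, Gabarap and Gabarapl2 and downward for Ulk1 and Sqstm1, while Gabarapl1 lies between 28.2 and 37.0 FPKM in all 12 libraries.

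Ulk1 (ENSMUSG00000029512, chr5:110784488-110810097 on GRCm38, minus strand) encodes the initiating kinase. It had 2.35, 1.10 and 1.65 FPKM in the NP-D@M libraries, against 4.10, 3.96 and 3.92 FPKM in the NP@M libraries. All 3 NP-D@M libraries were lower, with a wide spread among them, and rested on 52 to 128 reads against 761 to 817 reads. The mean was 2.35-fold lower in NP-D@M (log2 change -0.91, SE 0.196, adjusted p = 0.000935). Under quantile normalization the fall was -0.40 and was not called (adjusted p = 0.0561).

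Becn1 (ENSMUSG00000035086, chr11:101285952-101302286, minus strand) encodes Beclin 1, a subunit of the class III phosphatidylinositol 3-kinase complex. It had 39.3, 33.7 and 36.8 FPKM in NP-D@M, against 3.75, 3.74 and 4.05 FPKM in NP@M. Every NP-D@M library exceeded every NP@M library, and the mean was 9.52-fold higher (log2 change 2.95, SE 0.0878, adjusted p = 9.10e-11). In FPKM, 6.08% of all tested genes had a larger log2 change. The rise was also present in reads as counted, 1729 to 2332 in NP-D@M and 783 to 889 in NP@M, and per read in the table the log2 change was 1.31. Of the annotated exon bases of Becn1, 43.9% (3104 bases) are shared with Cntd1 on the opposite strand, a gene without a row in the deposited table. No source used here gives the strand setting of the authors' counting, so reads of Becn1 and of Cntd1 cannot be told apart in that stretch.

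Atg5 and Atg7 act in conjugation: ATG7 is the E1-like activating enzyme, and ATG5 is joined to ATG12 in the complex that directs lipidation of LC3. Atg5 (ENSMUSG00000038160, chr10:44268358-44364291, plus strand) had 7.65, 5.10 and 4.82 FPKM in NP-D@M, against 8.70, 11.1 and 10.3 FPKM in NP@M. Its groups did not overlap, though the highest NP-D@M library came close to the lowest NP@M library, and the fall was called (log2 change -0.70, SE 0.157, adjusted p = 0.00120). Atg7 (ENSMUSG00000030314, plus strand) had 9.38, 13.9 and 10.6 FPKM in NP-D@M, against 5.51, 5.52 and 4.85 FPKM in NP@M. All 3 NP-D@M libraries were higher, 2.13-fold in the mean (log2 change 0.95, SE 0.122, adjusted p = 1.51e-05). On the reads in the table the direction of Atg7 turned to -0.67 (adjusted p = 0.000157), while Atg5 stayed lower at -2.31. The ratio of Atg7 to Atg5 within a library does not depend on scaling by a single factor per library. In FPKM this ratio was 1.23, 2.74 and 2.20 in NP-D@M and 0.633, 0.498 and 0.472 in NP@M. It was thus 3.67-fold higher in NP-D@M without overlap (two-sided exact permutation p = 0.1, the smallest that 3 against 3 libraries allow); this ratio and 2 others below were chosen after the values were seen.

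The LC3 and GABARAP families are the ubiquitin-like proteins that are attached to phosphatidylethanolamine on autophagosomal membranes, where they bind cargo receptors. In the authors' scaling their 5 genes summed to 342 ± 14.2 FPKM in NP-D@M and 135 ± 5.02 FPKM in NP@M (SD, n = 3 each). The 2 LC3 genes were the smaller part of this sum. Map1lc3b (ENSMUSG00000031812, chr8:121590361-121598760, plus strand), whose protein LC3B is the usual marker of autophagosomes, had 34.2, 33.7 and 38.9 FPKM in NP-D@M, against 16.0, 16.6 and 16.7 FPKM in NP@M. The groups were well apart, with a 2.16-fold higher mean in NP-D@M (log2 change 1.07, SE 0.0874, adjusted p = 2.96e-07). The direction differed between scalings: on the reads in the table the change was -0.70 (adjusted p = 3.09e-06), and under quantile normalization it was -0.09 and not called. Map1lc3a (ENSMUSG00000027602, chr2:155276297-155278073, plus strand) was the least abundant of the family, with 4.85 to 8.98 FPKM in NP-D@M and 1.05 to 2.02 FPKM in NP@M. Its rise (log2 change 1.63, SE 0.190, adjusted p = 6.43e-06) rested on 47 to 89 reads against 38 to 74 reads, and was not called on the reads in the table (0.28, adjusted p = 0.204) or with the trend on gene length removed (0.50, adjusted p = 0.0517).

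Among the GABARAP genes the response was uneven. Gabarapl2 (ENSMUSG00000031950, chr8:111940703-111953612, plus strand), also known as GATE-16, had 83.5, 76.3 and 69.3 FPKM in NP-D@M, against 13.8, 12.8 and 13.6 FPKM in NP@M. The lowest NP-D@M library was far above the highest NP@M library, and the mean was 5.70-fold higher (log2 change 2.42, SE 0.0887, adjusted p = 3.48e-10). Gabarap (ENSMUSG00000018567, chr11:69991143-69994951, plus strand), the founding gene of the family, had 198, 195 and 181 FPKM in NP-D@M, against 80.3, 72.2 and 73.1 FPKM in NP@M. The NP-D@M libraries were all higher, by 2.54-fold in the mean (log2 change 1.33, SE 0.0865, adjusted p = 3.77e-08). Gabarapl1 (ENSMUSG00000030161, chr6:129533160-129542346, plus strand) had 31.2, 32.2 and 33.5 FPKM in NP-D@M, against 29.8, 28.2 and 28.6 FPKM in NP@M. These groups did not overlap, yet they lay close together, and the difference was not called (log2 change 0.15, 95% interval -0.04 to 0.35, adjusted p = 0.115). On the reads in the table Gabarapl2 stayed higher (0.65, adjusted p = 2.53e-05), Gabarap turned lower (-0.48, adjusted p = 0.000191) and Gabarapl1 was lower (-1.62, adjusted p = 1.57e-09). Quantile normalization gave 1.18 for Gabarapl2, -0.99 for Gabarap and -1.28 for Gabarapl1, all called. Of the 50-base words of Gabarapl2, 12.2% also occur in pseudogenes, and 28.3% of the exon bases of Gabarapl1 are shared with 1700101I11Rik on the opposite strand, so part of these counts is uncertain.

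The make-up of the family within a library is free of scaling by a single factor per library. It is not free of quantile normalization or of length trend removal, which shift the genes of a library unequally. With the length trend removed, the log2 change in NP-D@M against NP@M was 0.81 for Gabarap and 1.47 for Map1lc3b. In FPKM these changes were 1.33 and 1.07, and under quantile normalization -0.99 and -0.09. The shares below are those in FPKM. Gabarapl2 contributed 23.5%, 22.2% and 21.2% of the summed FPKM of the 5 genes in NP-D@M, against 9.78%, 9.76% and 10.2% in NP@M. Gabarapl1 showed the opposite, with 8.77%, 9.37% and 10.2% in NP-D@M against 21.2%, 21.5% and 21.4% in NP@M. Gabarapl2 was thus above Gabarapl1 in all 3 NP-D@M libraries and below it in all 3 NP@M libraries, while Gabarap held 55.9% ± 0.778 in NP-D@M and 55.5% ± 1.31 in NP@M (SD, n = 3 each). The exact permutation p was 0.1 for Gabarapl1 and for Gabarapl2, the smallest the design allows, and 0.4 after Benjamini-Hochberg adjustment over 20 such comparisons. The share of Map1lc3b was 10.4% ± 1.26 in NP-D@M and 12.2% ± 0.732 in NP@M (exact p = 0.2, 0.444 after adjustment), and the groups overlapped.

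**Figure D2:**
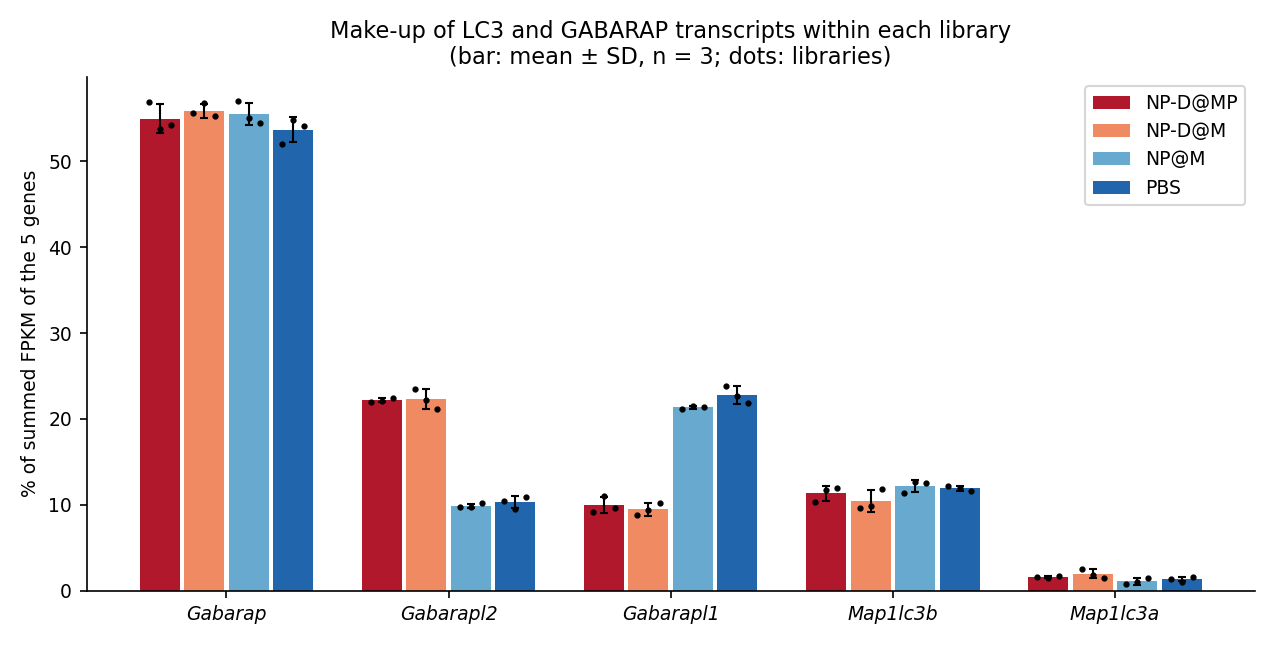
Share of the summed FPKM of the 5 LC3 and GABARAP genes that each gene contributed within a library (dots), with group means and SD (bars, n = 3), for NP-D@MP, NP-D@M, NP@M and PBS from left to right. Gabarapl2 holds 21.2% to 23.5% in the libraries with D and 9.51% to 10.9% in those without it, Gabarapl1 8.77% to 11.02% with D and 21.2% to 23.9% without it, and Gabarap 52.0% to 57.0% over all 12 libraries.

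Sqstm1 (ENSMUSG00000015837, chr11:50199366-50210827, minus strand) encodes the cargo receptor p62. It had 46.6, 43.2 and 45.7 FPKM in NP-D@M, against 153, 148 and 141 FPKM in NP@M. Every NP-D@M library was lower, and the mean was 3.26-fold lower (log2 change -1.69, SE 0.109, adjusted p = 3.70e-08). This fall was larger on the reads in the table (-3.49) and under quantile normalization (-3.82), and the reads themselves were 1051 to 1312 in NP-D@M and 14706 to 15768 in NP@M. A larger fall in FPKM was seen in 10.7% of all tested genes. Sqstm1 shares 17.3% of its exon bases with Mrnip on the opposite strand, a gene measured at 0.0996 ± 0.172 FPKM in NP-D@M and 1.26 ± 0.539 FPKM in NP@M (SD, n = 3 each). Set against its binding partners, Sqstm1 was at 0.132 ± 0.00710 of the summed LC3 and GABARAP FPKM in NP-D@M and at 1.09 ± 0.0385 in NP@M. That ratio was 8.25-fold lower in NP-D@M in all 3 libraries (exact permutation p = 0.1, the smallest possible). The ratio of Becn1 to Ulk1 was 23.2 ± 6.95 in NP-D@M and 0.963 ± 0.0618 in NP@M, a 23.4-fold difference of the geometric means with the same p.

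**Figure D3:**
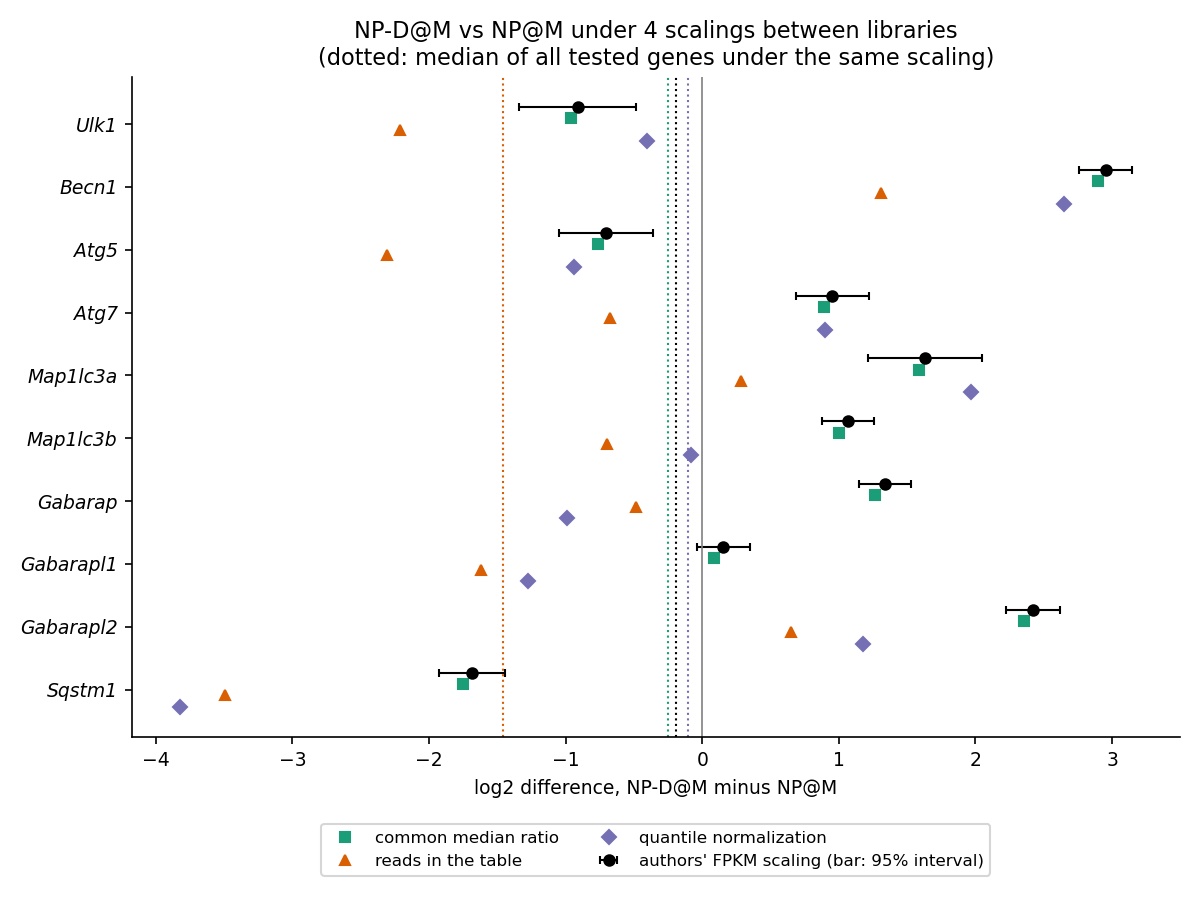
Log2 difference of each of the 10 genes between NP-D@M and NP@M under 4 scalings between libraries, with 95% intervals for the authors' FPKM scaling; dotted lines give the median of all tested genes under the same scaling, -0.19 in the authors' scaling and -1.46 on the reads in the table. Becn1, Gabarapl2 and Map1lc3a lie above 0 and Ulk1, Atg5 and Sqstm1 below 0 under all 4, though Map1lc3a was not called on the reads in the table (0.28). Atg7, Map1lc3b, Gabarap and Gabarapl1 change sides.

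The second contrast, NP-D@MP against PBS, takes its group means from none of the libraries of the first. Its estimate of the spread comes from the single model of all 12 libraries, so the calls of both contrasts are not independent. The same 6 genes were called higher (43.2% of all tested genes were) and 2 lower, Ulk1 and Sqstm1 (47.3% of all), while Atg5 (-0.32, adjusted p = 0.0692) and Gabarapl1 (0.11, adjusted p = 0.250) were not called. Of the 10 genes 9 had groups that did not overlap, against 93% of all tested genes, the exception being Gabarapl1 with 32.2 to 37.0 FPKM in NP-D@MP and 29.0 to 33.1 FPKM in PBS. All 10 genes had the same sign in both contrasts, as did 97.8% of all tested genes. Becn1 had 38.0, 39.2 and 37.4 FPKM in NP-D@MP, against 4.02, 4.42 and 3.76 FPKM in PBS, a log2 change of 2.95 (SE 0.0878, adjusted p = 8.62e-11). Sqstm1 had 55.4, 50.02 and 42.8 FPKM in NP-D@MP, against 167, 191 and 158 FPKM in PBS, a log2 change of -1.78 (SE 0.109, adjusted p = 2.21e-08). Both genes had groups far apart. Gabarapl2 had 77.5, 74.2 and 74.8 FPKM in NP-D@MP, against 14.6, 13.4 and 14.5 FPKM in PBS (log2 change 2.34, adjusted p = 4.48e-10). Ulk1 had 1.17, 2.01 and 2.81 FPKM in NP-D@MP and 4.35, 4.55 and 4.13 FPKM in PBS, lower in all 3 libraries (log2 change -0.87, SE 0.196, adjusted p = 0.00130). Atg5, with 5.33 to 6.38 FPKM in NP-D@MP and 7.09 to 8.89 FPKM in PBS, was called lower on the reads in the table (-1.96), with a common median ratio (-0.42), under quantile normalization (-0.40), with the length trend removed (-0.61) and without NP-D@M replicate 7 (adjusted p = 0.0218). On the reads in the table, as in the first contrast, 2 genes were called higher and 7 lower, against 17.5% and 70.7% of all tested genes.

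The contrast of NP-D@MP with NP-D@M, whose names differ by P, gave no call among the 10 genes, in a comparison in which 0.0495% of all tested genes were called (0.0396% higher and 0.0099% lower). None of the 10 reached an unadjusted p under 0.05, against 17% of all tested genes, and limma voom on the recovered reads called no gene at all in this contrast. No gene of the 10 had groups that did not overlap, against 14.2% of all tested genes. The log2 changes ran from -0.25 for Map1lc3a to 0.14 for Ulk1. The 95% intervals of all 10 lay between -0.66 and 0.57, the outer bounds being those of these 2 genes. For the more abundant genes the bounds were narrower: the interval was -0.13 to 0.26 for Becn1, -0.21 to 0.18 for Gabarapl2, -0.22 to 0.16 for Gabarap and -0.12 to 0.36 for Sqstm1. Sqstm1 averaged 49.4 ± 6.32 FPKM in NP-D@MP and 45.2 ± 1.77 FPKM in NP-D@M, and Map1lc3b 38.5 ± 1.92 FPKM in NP-D@MP and 35.6 ± 2.87 FPKM in NP-D@M (SD, n = 3 each), with overlapping libraries for both.

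NP@M against PBS, the treatment without D set beside the buffer, likewise gave no call among the 10 genes (adjusted p 0.463 to 0.994), and 0.0099% of all tested genes, a single gene, were called. None of the 10 was below an unadjusted p of 0.05, against 10.8% of all tested genes, and voom called no gene. Of the 10 genes 2 had groups that did not overlap, against 28.4% of all tested genes. These were Sqstm1, with 141 to 153 FPKM in NP@M and 158 to 191 FPKM in PBS (log2 change -0.22, 95% interval -0.46 to 0.02), and Ulk1, with 3.92 to 4.10 FPKM in NP@M and 4.13 to 4.55 FPKM in PBS (-0.10, interval -0.53 to 0.33). The largest difference was that of Atg5, with 8.70, 11.1 and 10.3 FPKM in NP@M and 7.14, 7.09 and 8.89 FPKM in PBS, which overlapped (log2 change 0.34, interval -0.0029 to 0.68, adjusted p = 0.463).

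Ranked by FPKM, which is per length, the genes stood in a different order with and without D. In NP-D@MP and NP-D@M Gabarap was the highest, at 187 and 191 FPKM, followed by Gabarapl2 and then Sqstm1, and Ulk1 was the lowest. In NP@M and PBS Sqstm1 was the highest, at 147 and 172 FPKM, followed by Gabarap, Gabarapl1 and Map1lc3b, and Map1lc3a was the lowest. Neighbours in these orders that overlapped between libraries were Becn1 with Map1lc3b and Map1lc3a with Atg5 in the groups with D, and Ulk1 with Becn1 in the groups without it. Together the 10 genes took 0.0747% to 0.0800% of the reads in the table with D and 0.188% to 0.219% without it. With D, Sqstm1 had 1024 to 1390 reads where the 10 genes together had 9880 to 11936 reads per library. Without D, Sqstm1 had 14706 to 19618 reads where the 10 genes together had 27773 to 34422 reads.

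Around the 10 genes, 62 further genes of the pathway were in the table and 60 were tested, in 9 groups. In NP-D@M against NP@M, 16 of the 60 rose and 37 fell in FPKM, beside 41.8% higher and 47.7% lower of all tested genes, and 50 of the 60 had groups that did not overlap, against 87.3% of all. The median log2 change was -0.66 against -0.19 over all tested genes. With the trend on gene length removed, 18 rose and 30 fell, and the median was -0.30 against -0.18. The shares of all tested genes called in this setting are not given here, so its counts have no background. Scaled to the table's own reads, 3 rose and 54 fell, with a median of -1.77 against -1.46. In NP-D@MP against PBS 17 rose and 35 fell, beside 43.2% higher and 47.3% lower of all tested genes. Without the length trend 17 rose and 28 fell there, and the median was -0.17, as over all tested genes. In NP-D@MP against NP-D@M none of the 60 was called, and 5 were below an unadjusted p of 0.05, against 17% of all tested genes. In NP@M against PBS none was called either, and 7 were below that p, against 10.8% of all. By rule, the gene with the largest called rise and the gene with the largest called fall of each group in NP-D@M against NP@M are named next.

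Among the partners of both kinases at the start of the pathway, every tested gene other than Becn1, which rose, was called lower in FPKM, as were 47.7% of all tested genes. All 3 measured partners of ULK1 fell, and Atg101, which stabilises the complex, had 0, 0 and 1 reads in NP-D@M, against 475, 409 and 447 reads in NP@M. All 7 further genes of the phosphatidylinositol 3-kinase complexes and their regulators fell. The largest fall on the log2(FPKM + 1) scale was that of Pik3c3, the catalytic subunit that binds Beclin 1, with 0.498 ± 0.394 FPKM in NP-D@M and 7.03 ± 0.512 FPKM in NP@M (SD, n = 3 each; log2 change -2.46, adjusted p = 7.52e-08). Under quantile normalization 6 of the 7 kinase complex genes were called lower, and Atg14 was not (-0.14, adjusted p = 0.532). The share of all tested genes called lower in that setting is not given here.

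The lipid transfer and membrane supply group was divided in FPKM, with 3 genes higher and 3 lower of 6. This lies near the 41.8% higher and 47.7% lower of all tested genes, the background for the other groups as well. Atg9b, a paralogue of the lipid scramblase Atg9a, had 73.0 ± 5.22 FPKM in NP-D@M and 7.82 ± 0.823 FPKM in NP@M (log2 change 3.07, adjusted p = 1.71e-10). Atg9a itself had 0.792 ± 0.698 FPKM in NP-D@M and 3.31 ± 0.162 FPKM in NP@M (log2 change -1.33, adjusted p = 0.000110). The paralogues thus moved in opposite directions, also on the reads in the table (1.34 for Atg9b and -2.43 for Atg9a). Of 4 further conjugation genes Atg3, the E2-like enzyme, rose (log2 change 1.28, but -0.42 on the reads in the table) and Atg16l1, the partner of ATG12 and ATG5, fell (-0.75). All 3 ATG4 proteases, which process LC3 and GABARAP proteins, fell, with Atg4c at -1.24. Only Atg4c of the 3 was called lower under quantile normalization (-0.65) or with the length trend removed (-1.16).

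Of 12 further cargo receptors and related genes 3 rose and 7 fell in FPKM, beside 41.8% higher and 47.7% lower of all tested genes. With the length trend removed 5 rose and 4 fell, a setting for which the shares of all tested genes are not given here. Fundc1, a mitophagy receptor in the outer mitochondrial membrane, had 27.5 ± 2.16 FPKM in NP-D@M and 11.6 ± 2.18 FPKM in NP@M (log2 change 1.19, adjusted p = 2.65e-06). Bnip3, a mitophagy receptor induced by hypoxia, had 18.7 ± 1.51 FPKM in NP-D@M and 56.8 ± 7.16 FPKM in NP@M (log2 change -1.54, adjusted p = 3.87e-07). Of 11 genes for fusion with lysosomes 6 rose and 4 fell. Ykt6, a SNARE, had 92.0 ± 4.89 FPKM in NP-D@M and 12.8 ± 0.509 FPKM in NP@M (log2 change 2.75, adjusted p = 1.43e-10). Snap29, which acts in the same fusion step, had 0.642 ± 0.214 FPKM in NP-D@M and 6.01 ± 0.787 FPKM in NP@M (log2 change -2.10, adjusted p = 6.65e-07). On the reads in the table Ykt6 stayed higher (0.98), whereas Fundc1 turned to -0.54 (adjusted p = 0.00140).

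Of 6 transcription factors of autophagy and lysosomal genes 1 rose and 5 fell in FPKM, beside 41.8% higher and 47.7% lower of all tested genes. Tfe3, a relative of TFEB, had 8.53 ± 1.53 FPKM in NP-D@M and 4.55 ± 0.535 FPKM in NP@M (log2 change 0.77), a direction that turned to -0.81 on the reads in the table. Zkscan3, described as a repressor of autophagy genes, had 0.101 ± 0.0993 FPKM in NP-D@M and 3.20 ± 0.101 FPKM in NP@M (log2 change -1.94, adjusted p = 2.92e-09). Of 8 tested genes of the nutrient and energy sensing complexes 2 rose and 4 fell, led by Mtor at 0.87, which turned to -0.75 on the reads in the table, and by Prkaa1, a catalytic subunit of AMPK, at -1.33. Scaled to the table's own reads, which put 70.5% of all tested genes lower, all 12 cargo receptors, all 6 transcription factors, all 8 sensing genes and all 4 conjugation genes were called lower, as were 8 of the 11 fusion genes with 1 higher.

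**Figure D4:**
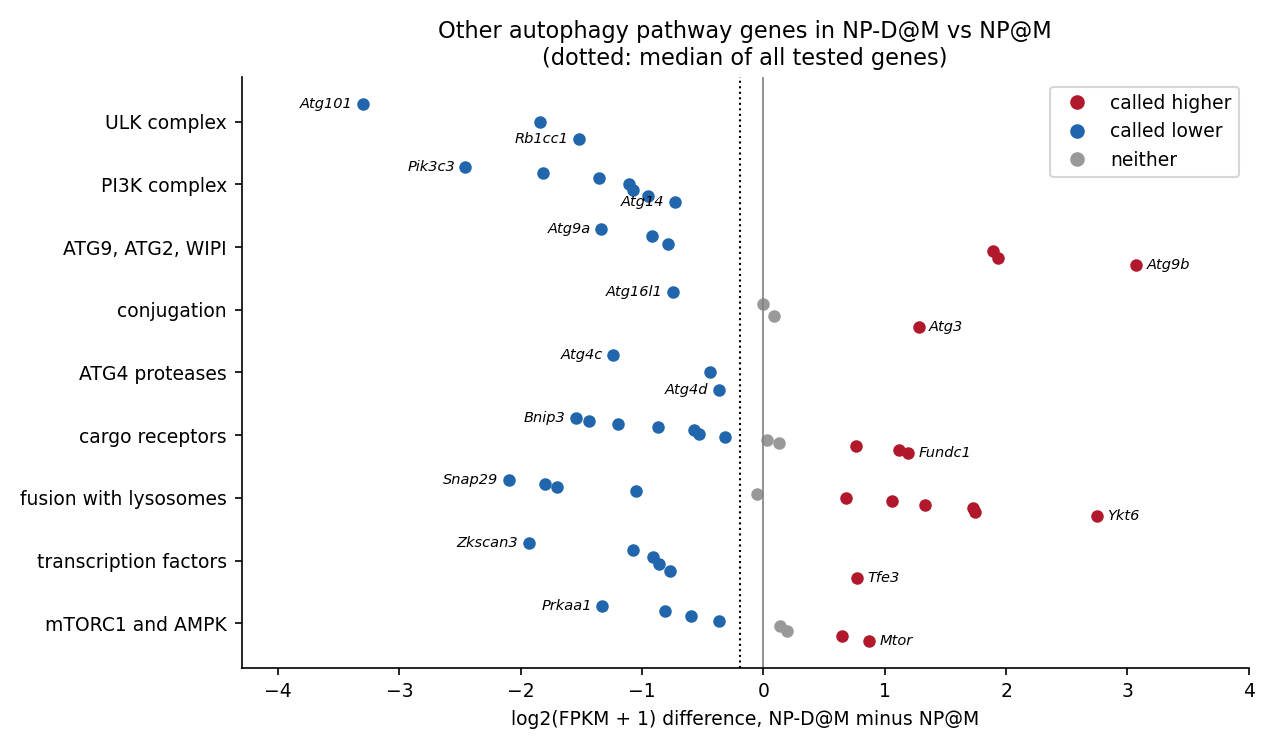
Log2(FPKM + 1) difference between NP-D@M and NP@M for the 60 tested further pathway genes, in 9 groups, coloured by whether a gene was called higher, called lower or neither; the dotted line is the median of all tested genes (-0.19), and the lowest and highest gene of each group are named. All genes of the ULK complex, the phosphatidylinositol 3-kinase complex and the ATG4 proteases lie below 0, while the ATG9 and fusion groups are spread from -2.10 to 3.07.

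Across the 12 libraries, the genes whose log2(FPKM + 1) followed Sqstm1 most closely were Col1a1 (Pearson r = 0.998), Acox2 (0.997) and Cdkn1a (0.996). Those closest to Map1lc3b were Bola3, Isg20 and Pofut1 (r = 0.998 each). Such values were common, and the libraries fall into 2 sets, with and without D, whose scaling also differs: of 10091 genes, 2089 had r above 0.95 with Sqstm1 and 2738 with Map1lc3b.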

How the data were processed

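Expression had been deposited by the authors as FPKM for 12584 genes in 12 libraries, from TruSeq libraries of 1 ug total RNA per the labels. The submitters' processing notes name Bowtie 0.12.2 and mm8. However, 12580 gene identifiers were found in GENCODE M21 of GRCm38, 12113 of them with identical coordinates, so GRCm38 coordinates are printed. No source used here names the gene counter, the strand setting or the origin of the FPKM divisor. Multiplying FPKM by gene length gave, within each library, whole multiples of a common step in 100% of values (relative tolerance 1e-06). The step was found from the smallest nonzero product and was taken to be a single read. The recovered reads and the FPKM divisors given above rest on this assumption. Chi-square per degree of freedom between replicate pairs was 6.93 to 57.7, and no library was merged.

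Genes with 1 FPKM or more in at least 3 libraries (10101) were tested with limma 3.58.1 (R 4.3.3), using log2(FPKM + 1), a single model of all 12 libraries and Benjamini-Hochberg adjustment over these genes. This scale understates changes of low genes, and folds are ratios of mean FPKM. The steps were checked on simulated data. That simulation changed only a small part of the genes and took the authors' divisor as given, so it cannot bear on the choice of scaling. Alternatives were other scalings (reads in the table, common median ratio, quantile normalization), voom on the recovered reads with the authors' divisor or TMM, other filters, pseudocounts and thresholds, and leaving out each library. The length trend removal and the 3 ratios within a library were chosen after seeing the data. The 10 genes and the pathway and marker lists were chosen with earlier results of these data known. Named pathway genes are the largest called rise and fall of each group in NP-D@M against NP@M, and any called gene in NP-D@MP against NP-D@M or NP@M against PBS. The 3 genes most like Sqstm1 and Map1lc3b were taken by Pearson correlation. Ratios and shares were tested by two-sided exact permutation.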

Additional observations from a re-analysis of the deposited data

How the results depend on the processing

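No paired analysis was possible because the library numbers are not shared between groups. In NP-D@M against NP@M, scaling to the reads in the table gave 2 genes of the 10 higher and 7 lower, and 3 further pathway genes higher; a log2 change of at least 1 left 1 of the 10 lower and 20 pathway genes lower, and a mean of at least 5 FPKM left 11 pathway genes lower, fewer genes being tested there. In NP-D@MP against PBS the reads in the table gave 2 higher and 7 lower of the 10, and 3 higher and 53 lower in the pathway. There the genes lower among the 10 were 5 under quantile normalization, 4 with the length trend removed, and 1 each at a mean of at least 5 FPKM or a log2 change of at least 1; pathway genes were 11 lower at the mean filter, and 11 higher and 20 lower at a log2 change of at least 1. Apart from the mean filter, the cause was not tested. For settings other than the reads in the table, the shares of all tested genes called are not given here. Those counts therefore have no background.

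Directions that turned on the reads in the table were, for NP-D@M against NP@M, Atg7 (-0.67), Map1lc3b (-0.70), Gabarap (-0.48) and Gabarapl1 (-1.62), and, for NP-D@MP against PBS, Atg7 (-0.68), Map1lc3a (-0.24), Map1lc3b (-0.64), Gabarap (-0.54) and Gabarapl1 (-1.72). Quantile normalization turned Map1lc3b (-0.086 and -0.0069), Gabarap (-0.99 and -1.02) and Gabarapl1 (-1.28 and -1.40) in these contrasts. TMM turned Gabarapl1 (-0.11 and -0.15), and removal of the length trend turned Gabarapl1 (-0.26 and -0.34) and, in NP-D@MP against PBS, Map1lc3a (-0.014). Uncalled values near 0 also changed sign: in NP@M against PBS Atg7 under quantile normalization (0.0096) and Map1lc3b with the length trend removed (-0.027), and in NP-D@MP against NP-D@M Becn1 (-0.0011 on the reads in the table, -0.032 by quantile), Atg5 (-0.017 on the reads in the table, -0.013 by quantile, -0.039 by length), Atg7 (-0.0062 by quantile) and Gabarapl1 (-0.028 by quantile, -0.021 by length).

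Leaving out each library kept 6 higher and 3 lower of the 10 in NP-D@M against NP@M, and 6 higher and 2 to 3 lower in NP-D@MP against PBS. The signs that turned were of uncalled values. In NP@M against PBS the ranges were -0.047 to 0.032 for Atg7, -0.037 to 0.028 for Map1lc3b, -0.023 to 0.058 for Gabarap, -0.016 to 0.66 percentage points for the Map1lc3b share and -0.010 to 0.078 for the log2 ratio of Becn1 to Ulk1. In NP-D@MP against NP-D@M they were -0.052 to 0.35 for Ulk1, -0.067 to 0.22 for Atg5, -0.050 to 0.21 for Atg7, -0.079 to 0.054 for Gabarapl2, -0.48 to 0.16 for the ratio of Becn1 to Ulk1 and -0.31 to 0.27 for that of Atg7 to Atg5, and 0 to 1 further pathway genes were called higher, the 1 without NP-D@M replicate 9.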
